A study of Rattus norvegicus with 36 samples.

Results

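Fgf2 (fibroblast growth factor 2, or basic FGF, listed as ENSRNOG00000017392) was described across cocaine treatments in the rat ventral striatum. It is 1 of the 31546 genes of the count tables and was selected on the values it showed in these groups, so its levels and differences are given as a description, without a test. RNA came from the nucleus accumbens of male Sprague-Dawley rats, 8 weeks old according to the labels, which received 3 injections per day for 5 days and were sampled 24 h after the last one. Sal-Sal rats received 15 saline injections. Sal-Coc rats received saline and then 3 cocaine injections of 20 mg/kg on the last day. Coc-Coc rats received 15 cocaine injections at that dose. The labels count 13 saline injections for Sal-Coc and the methods count 12. Each group held 3 pools of 2 rats according to the methods, whereas the labels name 1 rat for each library, and no engineered allele is named for any group. Each pool was sequenced as 4 technical replicates, which were summed, and totals ranged from 36372166 to 42449841 counts per pool. Sal-Sal pool 1 had the highest share of counts in its 100 most counted genes, 29.6% against 20.8% to 26.9% in the other 8 pools, and had the fewest genes with a count, 18752 against 19172 to 19528.

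FGF2 is a heparin-binding growth factor that signals through FGF receptor tyrosine kinases, with heparan sulfate chains as co-receptors, towards the ERK, PI3K-AKT and phospholipase C gamma pathways. In the adult brain it is made largely by astrocytes and by some neurons, and it is known as a survival and neurotrophic factor for midbrain dopamine neurons, whose axons end in the striatum. Its gene overlaps at one end with Nudt6, which is transcribed in the opposite direction and is also known as the FGF antisense gene.

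In the RefSeq annotation of the GRCr8 build, Fgf2 lies on chromosome 2 and overlaps Nudt6 on the other strand. The nearest protein-coding genes beyond these are Bbs12 and Afg2a. No identifier of the count tables could be joined to Nudt6, Bbs12 or Afg2a, so no value is given for them. The libraries were made with a strand-specific kit, but whether the counting used strand is not given in the sources used here. Unless it did, reads from the stretch shared by Fgf2 and Nudt6 cannot be told apart. The sequence around the Fgf2 start in RefSeq is shown as the stretch where transcripts of the gene begin. It is on the plus strand at chr2:122164204-122164503 of GRCr8, from 250 bases before to 50 bases after the start. Capitals mark a match to the half-site of the cAMP response element.
Fgf2 promoter: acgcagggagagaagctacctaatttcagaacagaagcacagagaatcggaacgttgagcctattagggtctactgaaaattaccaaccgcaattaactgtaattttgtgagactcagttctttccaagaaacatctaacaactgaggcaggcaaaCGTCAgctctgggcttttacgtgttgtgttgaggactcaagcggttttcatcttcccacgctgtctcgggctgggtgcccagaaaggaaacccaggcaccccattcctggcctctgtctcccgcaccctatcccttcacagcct

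The half-site was searched as TGACG on both strands. It was found 1 time, as CGTCA on the printed strand, and 21.2% of the 33469 RefSeq promoters of the same length hold it. An E-box, CANNTG, occurred 1 time as CAACTG, and 72.1% of promoters hold one. The letters of an AP-1 site (TGANTCA, in 7.33% of promoters), an Sp1 GC box (GGGCGG, 33.1%) and a TATA box (TATAAA, 14.2%) are not in this window. G and C made up 49.7% of the bases, against a median of 51.7% over all promoters. These are descriptions of the letters, and factor binding was not measured.

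Fgf2 was lowest after the single day of cocaine and highest after 5 days of cocaine. Raw counts were 491, 490 and 439 in the Sal-Sal pools. After 1 day of cocaine they were 294, 309 and 370. After 5 days of cocaine they were 601, 708 and 712. The counts of the groups did not overlap, with every Sal-Coc pool below every Sal-Sal pool and every Coc-Coc pool above both. Among the 36 technical tables, Fgf2 counts ran from 62 to 193. The 4 tables of a pool differed by no more than sampling noise, since the chi-square on 3 degrees of freedom lay between 0.0669 and 3.65 and 0 of the 9 pools passed the 95% point.

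On a counts-per-million scale (CPM) set with edgeR's trimmed mean of M-values (TMM), Fgf2 stood at 14.5, 12.1 and 10.5 CPM in the Sal-Sal pools, with a mean of 12.4 ± 2.03 CPM (SD, n = 3). In the Sal-Coc pools it stood at 6.89, 8.23 and 10.3 CPM, with a mean of 8.46 ± 1.69 CPM (SD, n = 3). In the Coc-Coc pools it stood at 16.1, 16.4 and 17.2 CPM, with a mean of 16.6 ± 0.551 CPM (SD, n = 3). The order was therefore Sal-Coc, Sal-Sal, Coc-Coc, and the pools of neighbouring groups did not overlap on this scale either.

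The Sal-Sal and Sal-Coc pools came close to each other. The lowest Sal-Sal pool had 10.45 CPM and the highest Sal-Coc pool 10.25 CPM. Scaled to total counts without TMM factors, these pools had 10.3 CPM (95% exact Poisson interval 9.40 to 11.4) and 10.2 CPM (9.16 to 11.3), so that counting error alone does not separate them. The order of these pools was the same with median-of-ratios size factors, at 409 and 400.0 scaled counts, and with upper-quartile scaling, at 10.6 and 10.1 CPM. Coc-Coc was further from its neighbour, with 16.12 CPM in its lowest pool against 14.49 CPM in the highest Sal-Sal pool. On total counts these pools had 15.9 CPM (14.7 to 17.2) and 13.3 CPM (12.1 to 14.5). The intervals cover counting error only.

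**Figure D1:**
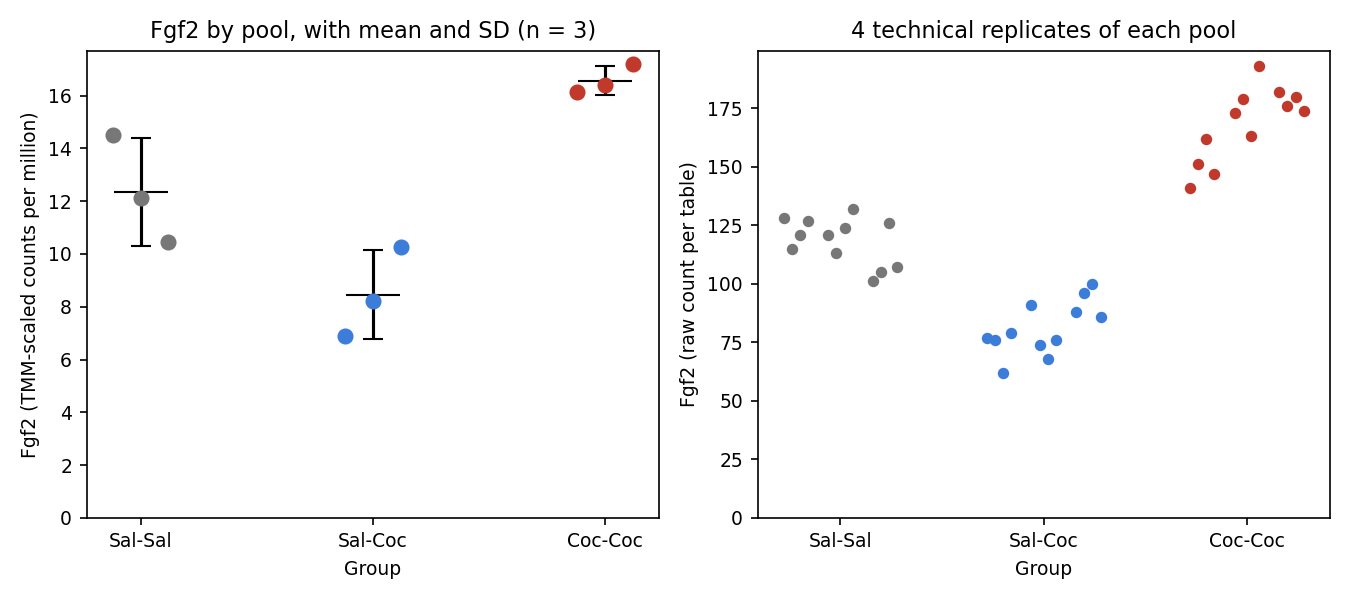
Left, Fgf2 in TMM-scaled CPM (vertical axis, from 0) for each pool of the 3 groups, with horizontal lines and bars for the mean and SD of 3 pools. Right, raw Fgf2 counts of the 4 technical replicates of each pool; the Coc-Coc pools lie between 16.1 and 17.2 CPM, above all others, and the lowest Sal-Sal pool nearly meets the highest Sal-Coc pool.

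The coefficient of variation was 16.4% in Sal-Sal and 19.98% in Sal-Coc, where counting error alone would give 4.60% and 5.57%. In Coc-Coc it was 3.325%, against 3.86% from counting error. With 3 pools in a group, these spreads were not compared by a test.

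The Fgf2 mean in Sal-Coc was 68.5% of that in Sal-Sal, and in Coc-Coc it was 134% of it. In the edgeR fit over 9 pools, the log2 fold change was -0.55 (SE 0.16) for Sal-Coc against Sal-Sal. It was 0.43 (SE 0.16) for Coc-Coc against Sal-Sal. Between the cocaine groups, Coc-Coc stood 0.97 (SE 0.16) above Sal-Coc on the log2 scale, a ratio of mean CPM of 1.96. These comparisons share pools, and their values are given side by side. They are the values on which Fgf2 was selected. Sal-Sal pool 1 had the highest Fgf2 level of its group, and without it the log2 fold changes against Sal-Sal were -0.42 for Sal-Coc and 0.57 for Coc-Coc.

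Against the 15641 genes that passed the filter on low counts, the Fgf2 level was modest. Its mean over the 9 pools was 12.5 CPM, and 9420 genes (60.2%) had a higher mean. Its size of change stood out in 1 comparison more than in the others. The absolute log2 fold change was larger than that of Fgf2 in 2413 genes for Sal-Coc against Sal-Sal, in 2979 genes for Coc-Coc against Sal-Sal and in 260 genes for Coc-Coc against Sal-Coc. The biological coefficient of variation that edgeR assigned to Fgf2 was 0.143, against a median of 0.119 over the genes tested.

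Non-overlapping pools were common in single comparisons. Sal-Coc pools all lay below Sal-Sal pools in 16.8% of the genes tested. Coc-Coc pools all lay above Sal-Sal pools in 19.4%, and all above Sal-Coc pools in 7.69%. The full order shown by Fgf2, with Sal-Coc below Sal-Sal and Sal-Sal below Coc-Coc without overlap, occurred in 11 genes, or 0.0703%. Besides Fgf2, the join gave a symbol to 1 of them, Cacna1e, the pore-forming subunit of the R-type voltage-gated calcium channel. For Cacna1e the log2 fold change was -0.38 (SE 0.13) for Sal-Coc and 0.34 (SE 0.13) for Coc-Coc against Sal-Sal. Of the other 10 genes with this order, 2 had a larger Coc-Coc minus Sal-Coc difference than Fgf2, and their means over the pools were only 0.278 and 0.193 CPM. Without Sal-Sal pool 1, 43 genes had the full order, with fewer pools to separate.

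Most genes called lower after the single day of cocaine also had a Coc-Coc level below Sal-Sal, whereas Fgf2, selected on these group values, had a higher one. At a Benjamini-Hochberg adjusted p under 0.05 in edgeR's quasi-likelihood fit, 2572 genes differed between Sal-Coc and Sal-Sal (16.4% of those tested), and 917 of them were lower in Sal-Coc (5.86%). Fgf2 is counted among the 917 by its values, as a description. In 897 of the 917, the Coc-Coc level was below that of Sal-Sal, and the median log2 fold change of Coc-Coc against Sal-Sal was -0.30. In 20 genes (2.18%) Coc-Coc stood above Sal-Sal. Fgf2 had the highest value of the 917 at 0.43, and the next gene, Ubn2, stood at 0.17. The cut on adjusted p left out other genes that were lower in Sal-Coc and above Sal-Sal in Coc-Coc. Among these were Cacna1e, at -0.38 and 0.34, and AABR07042733.1, at -0.30 and 0.49. The median over all genes tested was -0.01. Without Sal-Sal pool 1, edgeR called 207 genes lower in Sal-Coc, and Fgf2 was not among them. Over the 917 genes, Coc-Coc then stood above Sal-Sal in 34, and 0 had a higher value than Fgf2. The contrasts share the Sal-Sal pools, so a high Sal-Sal level lowers both log2 fold changes of a gene. The genes were called in the first contrast, so their side of 0 in the second is not independent of that choice. The rank of Fgf2 rests on the values it was selected on, and no test was made of this pattern.

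**Figure D2:**
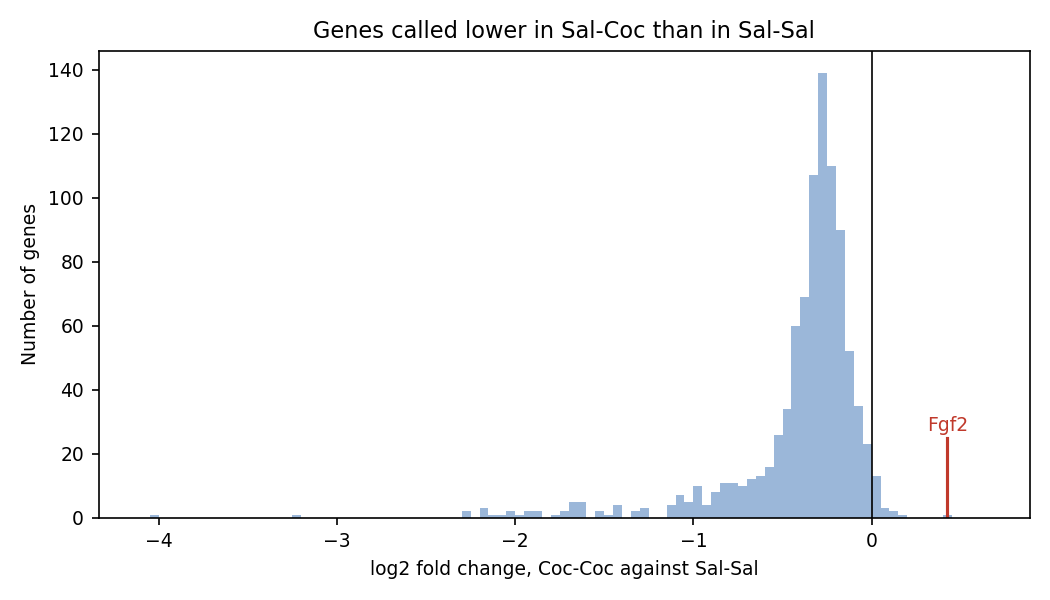
Number of genes (vertical axis) by log2 fold change of Coc-Coc against Sal-Sal (horizontal axis), for the 917 genes called lower in Sal-Coc than in Sal-Sal. Most lie below 0, with a median of -0.30, and the red line marks Fgf2 at 0.43, to the right of the rest.

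Fgf2 was then set beside the genes that the study listed as different between Coc-Coc and Sal-Coc. That list was chosen on these same samples and is not independent evidence. It holds 27 genes with a joined identifier, of which 19, Fgf2 included, were higher in Coc-Coc. All 19 had their lowest level in Sal-Coc, with a median log2 fold change of -0.88 against Sal-Sal, and 16 of them were lowered more than Fgf2. The levels in Coc-Coc then spread around the saline level. The median log2 fold change of Coc-Coc against Sal-Sal was -0.08, with 8 genes above 0 and 11 below.

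At the low end, Lrp1b, a large receptor of the LDL receptor family, stood at -0.76 (SE 0.24) in Coc-Coc against Sal-Sal. Dgkh, a diacylglycerol kinase, and Grin2b, an NMDA receptor subunit, were each at 0.01 (SE 0.16 and 0.14). Grm3, a metabotropic glutamate receptor found on astrocytes and neurons, stood at -0.11 (SE 0.12). At the high end were Cacna1e at 0.34 (SE 0.13), Fgf2 at 0.43 (SE 0.16) and AABR07042733.1, described by the study as cadherin 8, at 0.49 (SE 0.16). In the log2 fold change of Coc-Coc against Sal-Coc, 5 of the 19 exceeded Fgf2. Dgkh and Lrp1b were among them, each at 1.43 (SE 0.16 and 0.25). By mean CPM over the pools, 2 of the 19 were below Fgf2.

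**Figure D3:**
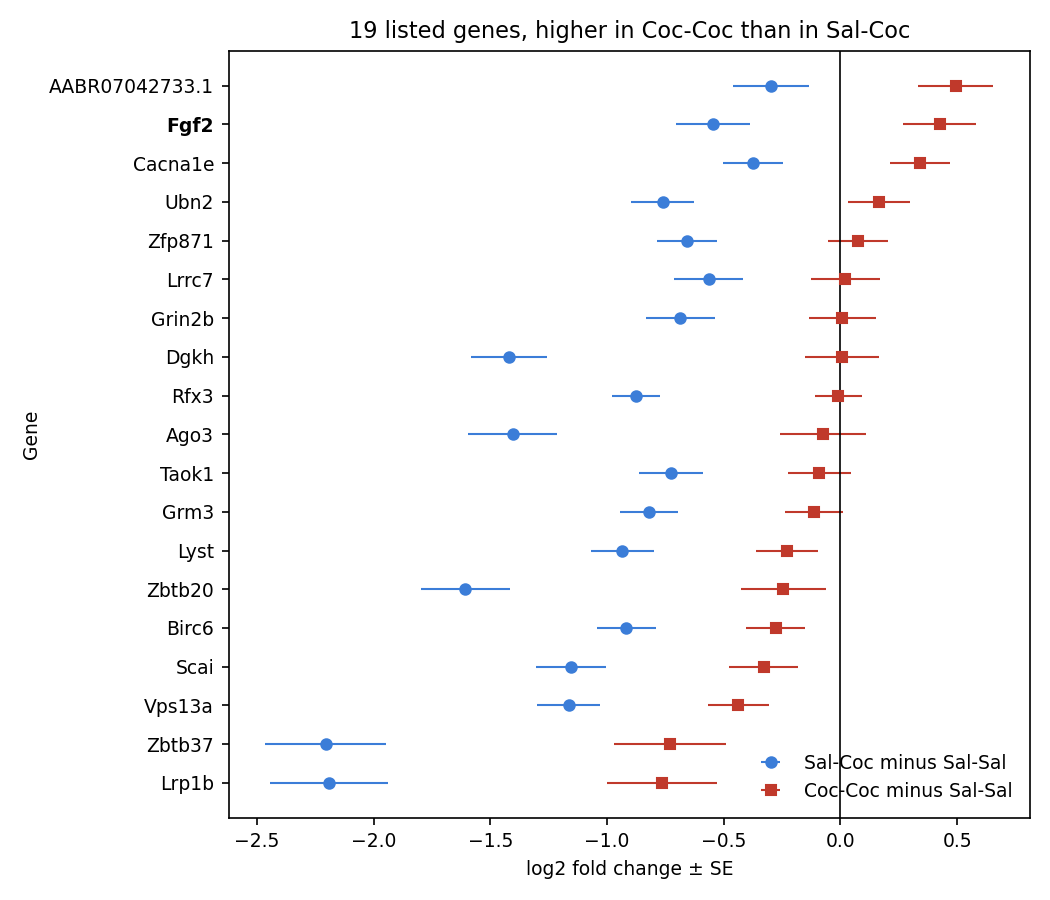
Log2 fold change with its SE (horizontal axis) of the 19 listed genes that were higher in Coc-Coc than in Sal-Coc, for Sal-Coc against Sal-Sal (blue circles) and Coc-Coc against Sal-Sal (red squares). All blue circles lie below 0, from -2.21 for Zbtb37 to -0.30 for AABR07042733.1, and Fgf2, second from the top, is at -0.55 and 0.43.

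Over all genes, edgeR called 1702 genes different between Coc-Coc and Sal-Sal (10.9%) and 0 between Coc-Coc and Sal-Coc (0.0%). In that last comparison 1453 genes had an unadjusted p under 0.05, and DESeq2 called 145 of 14308 genes (1.01%). The p-values weigh group differences against the spread between these pools. They are given for genes below, not for Fgf2. Those genes could be named only where the study had published them as changed in these libraries, so their p-values are not independent evidence.

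Genes of the FGF pathway were taken from lists of 132 FGF family members, receptors, heparan sulfate proteins, signalling adaptors, feedback inhibitors, targets and other growth factors. The tables give identifiers only, and a symbol could be joined only where the study had published that gene as changed in these libraries. This left 7 of the 132 with a value. The 22 other FGF family members, the FGF receptors and the remaining genes, 125 genes in all, have none. Because the study picked the 7 on these samples, the counts called among them are not independent evidence. All 7 passed edgeR's test in Sal-Coc against Sal-Sal (5 higher, 2 lower), where 16.4% of all genes tested were called. In Coc-Coc against Sal-Sal 5 passed (4 higher, 1 lower), where 10.9% of all genes were called. In Coc-Coc against Sal-Coc 0 passed, as over all genes, and DESeq2 called 0 of the 7. There 1 of the 7 had an unadjusted p under 0.05 by edgeR, as did 1453 of the 15641 genes tested. The median log2 fold changes of the 7 were 0.58, 0.40 and -0.09, against -0.01 over all genes in each comparison.

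Among the heparan sulfate proteoglycans that can carry FGF2, Gpc6, a glypican of the cell surface, shared the fall in Sal-Coc. It stood at 20.3, 17.7 and 23.0 CPM in Sal-Sal and at 10.4, 12.3 and 15.3 CPM in Sal-Coc. Its pools in these groups did not overlap, as in 16.8% of the genes tested. Its log2 fold change was -0.68 (SE 0.15, adjusted p = 0.0165 by edgeR). In Coc-Coc it stood at 17.5, 15.8 and 14.7 CPM, the highest just short of the lowest Sal-Sal pool. This log2 difference was -0.35 (SE 0.15), with an adjusted p of 0.153 by edgeR. The Gpc6 mean in Coc-Coc was 16.0 CPM against 20.3 CPM in Sal-Sal, a difference that was not called, whereas the Fgf2 mean lay above Sal-Sal. Agrn, which encodes the basement membrane and synaptic proteoglycan agrin, rose. Its 3 saline pools held 153 to 196 CPM, the Sal-Coc pools 271 to 287 CPM and the Coc-Coc pools 226 to 264 CPM. The log2 fold change was 0.73 (SE 0.11, adjusted p = 0.00459 by edgeR) in Sal-Coc and 0.52 (SE 0.11, adjusted p = 0.0225) in Coc-Coc.

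Downstream of the receptors, Plcg1, the phospholipase C that FGF receptors phosphorylate, rose by 0.58 (SE 0.08, adjusted p = 0.00407 by edgeR) in Sal-Coc and by 0.49 (SE 0.08, adjusted p = 0.0162) in Coc-Coc on the log2 scale. Etv4, an ETS transcription factor induced by FGF and ERK signalling, rose from a mean of 8.72 ± 1.596 CPM (SD, n = 3) in Sal-Sal to 14.7 ± 1.01 CPM after 1 day of cocaine and 14.1 ± 2.61 CPM after 5 days. Its edgeR adjusted p-values were 0.0148 and 0.0296. Spry3, of the Sprouty family of feedback inhibitors, rose from 6.82 ± 1.08 CPM to 10.4 ± 0.314 CPM (SD, n = 3) in Sal-Coc, with an edgeR adjusted p of 0.0138. In Coc-Coc it stood at 9.03 ± 0.275 CPM, where the adjusted p was 0.0668. These genes stood above Sal-Sal in both cocaine groups, whereas Fgf2 stood below it in Sal-Coc and above it in Coc-Coc.

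Of the other growth factors, Vegfa, the main angiogenic factor, rose by 0.48 (SE 0.08, adjusted p = 0.00637 by edgeR) in Sal-Coc and by 0.39 (SE 0.08, adjusted p = 0.0224) in Coc-Coc on the log2 scale. Vegfb, its relative, fell by 0.76 (SE 0.15, adjusted p = 0.0119 by edgeR) and by 0.63 (SE 0.15, adjusted p = 0.0336). Both kept their direction with repeated cocaine. In Coc-Coc against Sal-Coc the log2 fold change of the 7 genes ran from -0.21 for Agrn to 0.34 for Gpc6, where Fgf2 had 0.97. Without Sal-Sal pool 1, edgeR called 4 of the 7 in Sal-Coc and 1 in Coc-Coc against Sal-Sal. Without a Coc-Coc pool it called 3, 1 and 0 of the 7 in Coc-Coc against Sal-Sal, for pools 1, 2 and 3, and without Sal-Sal pool 3 it called 3. Over all genes, those called lower in Sal-Coc also fell without Sal-Sal pool 1, from 917 to 207. No count over all genes is given for the other pools, so these falls are not read as particular to the 7.

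**Figure D4:**
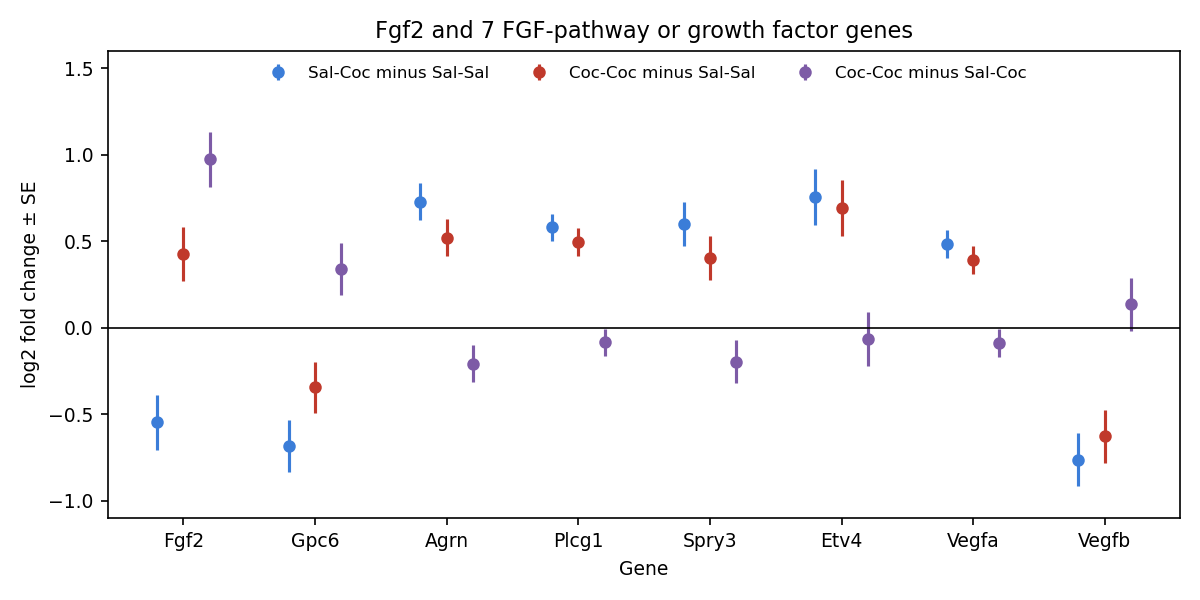
Log2 fold change with its SE (vertical axis) in the 3 comparisons for Fgf2 and the 7 genes of the FGF pathway and growth factor lists that have an identifier. Fgf2 crosses 0 from -0.55 to 0.43, whereas each of the other genes keeps the same side of 0 in both comparisons with Sal-Sal.

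Fgf2 also belonged to 4 pathway lists (Ras, Rap1, PI3K-Akt and pathways in cancer) that the study drew from its own Sal-Coc against Sal-Sal genes. Their 38 other genes with an identifier were chosen on these samples, so the counts called among them are not independent evidence. In Sal-Coc against Sal-Sal, where 16.4% of all genes tested were called, edgeR called all 38, of which 26 were higher and 12 lower. It called 22 of the 38 in Coc-Coc against Sal-Sal, where 10.9% of all genes were called. In Coc-Coc against Sal-Coc it called 0, as over all genes. All 26 also stood above Sal-Sal in Coc-Coc. Of the 12 that fell with Fgf2, 11 stood below Sal-Sal in Coc-Coc. The same held for 897 of the 917 genes called lower in Sal-Coc, so this count is not particular to the pathway genes. Among the 11 was Creb1, the cAMP-responsive transcription factor, at -0.13 (SE 0.13, adjusted p = 0.547 by edgeR) on the log2 scale. Another was Jun, a subunit of AP-1, at -0.29 (SE 0.15, adjusted p = 0.222 by edgeR). Creb1 and Jun stood at -0.66 (SE 0.13) and -0.63 (SE 0.15) in Sal-Coc. The exception was Grin2b, at 0.01. In Coc-Coc against Sal-Coc, 1 of the 38 had a larger log2 fold change than Fgf2, and that gene, Cdh1, had a mean of only 0.362 CPM. In the Ras list, the lower genes in Sal-Coc were Fgf2, Grin2b, Pak3 and Vegfb, and the other 12 of 16 were higher. A MAPK list that the study drew from its Coc-Coc against Sal-Coc genes holds Fgf2, Cacna1e and Taok1, a kinase of stress signalling. Taok1 stood at -0.73 (SE 0.14) in Sal-Coc and -0.09 (SE 0.13) in Coc-Coc against Sal-Sal on the log2 scale, and Cacna1e has been given above. Both stood below Sal-Sal in Sal-Coc and higher in Coc-Coc than in Sal-Coc, with a median difference of 0.68.

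Of 15 astrocyte markers, 3 have an identifier, again because the study had published them as changed, and the other 12 have no value. All 3 fell in Sal-Coc against Sal-Sal, where 16.4% of all genes tested were called, so this count is no independent evidence on astrocyte genes. In bulk tissue, fewer cells of a type and less RNA per cell cannot be told apart. Slc1a2, the glial glutamate transporter GLT-1, stood at 530, 439 and 394 CPM in Sal-Sal and at 292, 202 and 260 CPM in Sal-Coc. Its log2 fold change was -0.85 (SE 0.17, adjusted p = 0.0117 by edgeR). S100b, a calcium-binding protein of astrocytes, fell by 0.51 (SE 0.13, adjusted p = 0.0269 by edgeR), and Fabp7, a fatty acid-binding protein of glia, fell by 0.91 (SE 0.20, adjusted p = 0.0183 by edgeR) on the log2 scale. Without a single pool, edgeR called 0 of the 3 (Sal-Sal pool 1) or 1 of the 3 (Sal-Sal pool 2, Sal-Coc pool 2 or Sal-Coc pool 3). Over all genes, those called lower also fell without Sal-Sal pool 1, as given above, and no such count is given for the other pools.

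In Coc-Coc, none of the 3 passed edgeR's test against Sal-Sal, where 10.9% of all genes tested were called. In that comparison 1 of the 3 had an unadjusted p under 0.05, as did 4701 of the 15641 genes tested. DESeq2 called 0 of the 3. The log2 fold changes of the markers were -0.05 (SE 0.17) for Slc1a2, -0.23 (SE 0.13) for S100b and -0.47 (SE 0.20) for Fabp7. Against Sal-Coc, edgeR also called 0 of the 3, 2 had an unadjusted p under 0.05 and DESeq2 called 1. The 3 markers summed to 1592 to 2060 CPM in the saline pools. The sum was 1151 to 1258 CPM in Sal-Coc and 1389 to 1896 CPM after repeated cocaine.

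Set against that sum, Fgf2 came to 0.674% ± 0.0257 of the 3 markers in Sal-Sal and to 0.706% ± 0.154 in Sal-Coc (SD, n = 3). In Coc-Coc it came to 1.05% ± 0.194 (SD, n = 3), with pools from 0.850% to 1.24%, of which the lowest fell just short of the highest Sal-Coc pool at 0.856%. Every Coc-Coc pool lay above the highest Sal-Sal pool, at 0.703%. The ratio is a description. It rests on 3 markers that could be named because they had been published as changed, all lower in Sal-Coc, which bears on the Sal-Coc value, and S100b alone makes up 1302 of the mean sum of 1828 CPM in Sal-Sal.

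**Figure D5:**
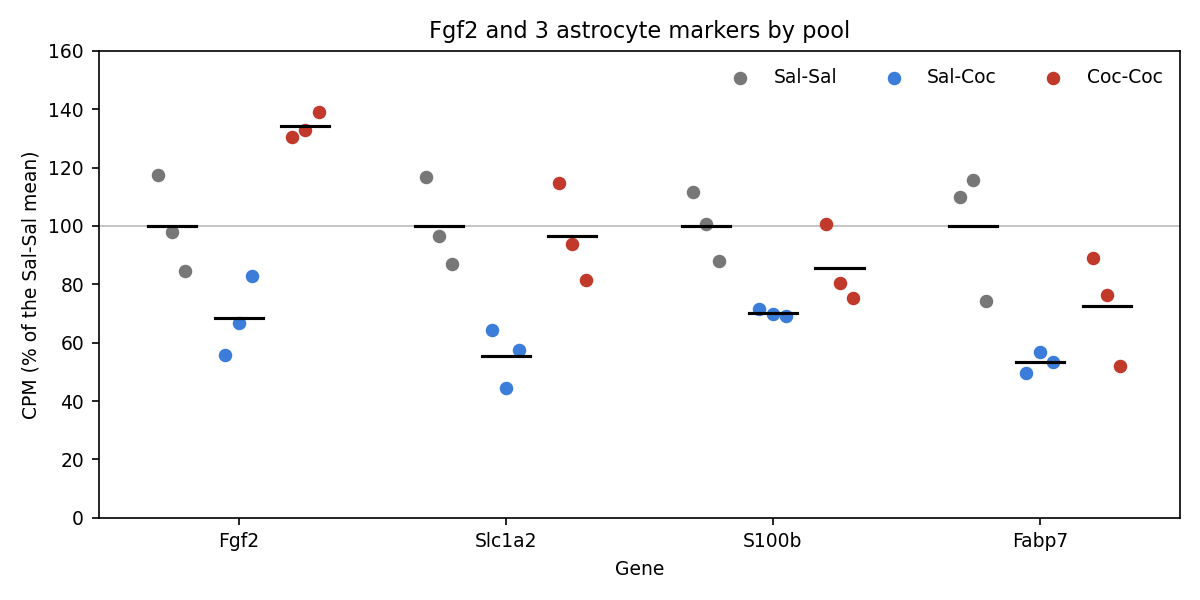
CPM of Fgf2 and of the astrocyte markers Slc1a2, S100b and Fabp7 in each pool, as a percentage of the gene's Sal-Sal mean (vertical axis, from 0), with black lines for group means. All 4 genes are lower in Sal-Coc, and the Fgf2 pools of Coc-Coc lie at 131% to 139%. No marker's mean exceeds 100%, and the highest marker pool of Coc-Coc is at 115%, for Slc1a2.

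Of the 73 markers of other cell types, 5 have an identifier, again because the study had published them as changed. Their p-values are therefore not independent evidence. Pdgfrb, of pericytes, rose by 0.54 (SE 0.10, adjusted p = 0.0105 by edgeR) in Sal-Coc and by 0.57 (SE 0.10, adjusted p = 0.0183) in Coc-Coc against Sal-Sal on the log2 scale. Flt1, of endothelial cells, rose by 0.54 (SE 0.16, adjusted p = 0.0433 by edgeR) in Sal-Coc, and stood at 0.40 (SE 0.16, adjusted p = 0.121) in Coc-Coc. Nefl, a neuronal neurofilament, fell by 0.47 (SE 0.11, adjusted p = 0.0336 by edgeR) in Coc-Coc, and stood at -0.16 (SE 0.11, adjusted p = 0.35) in Sal-Coc. Pvalb, of fast-spiking interneurons, stood at -0.54 (SE 0.16, adjusted p = 0.0543 by edgeR) in Coc-Coc and at 0.21 (SE 0.15, adjusted p = 0.38) in Sal-Coc. The haemoglobin gene Hba-a2 stood at 2.69 ± 1.05 CPM in Coc-Coc and at 0.630 ± 0.339 CPM in Sal-Sal (SD, n = 3, edgeR adjusted p = 0.0276). In Sal-Coc it stood at 0.865 ± 0.360 CPM (edgeR adjusted p = 0.537). The part of these 5 genes in the Fgf2 levels was not tested. The 100 most counted genes held 24.1% to 29.6% of counts in the saline pools, with the highest share in Sal-Sal pool 1, which also had the highest Slc1a2 and S100b levels of its group. They held 20.8% to 24.4% in Sal-Coc and 23.3% to 26.9% after repeated cocaine, and their part was not tested either.

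The genes most like Fgf2 across the 9 pools were ranked by Pearson's r of log2 CPM over 13634 other genes with a mean of at least 1 CPM. The 9 points fall into 3 groups and share their libraries, so r is given as a description. In all, 14 genes reached an r of at least 0.9 and 20 an r of -0.9 or lower. The highest values belonged to genes without a joined symbol, ENSRNOG00000011016 (r = 0.97) and ENSRNOG00000008178 (r = 0.95). The former had means of 16.5 ± 0.700 CPM (Sal-Sal), 13.1 ± 1.66 CPM (Sal-Coc) and 19.4 ± 0.597 CPM (Coc-Coc; SD, n = 3), and it is 1 of the 11 genes with the same separated order. The lowest values were those of ENSRNOG00000001065 (r = -0.99) and ENSRNOG00000046450 (r = -0.96).

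Among the genes with a symbol, all of them published as changed by the study, the most alike were Mettl11b (r = 0.93), a protein N-terminal methyltransferase, Mfap3l (r = 0.88), Dgkh (r = 0.86), Lrrc7 (r = 0.84), a postsynaptic density protein, and Cacna1e (r = 0.84). Mettl11b had means of 11.4 ± 3.24 CPM (Sal-Sal), 6.57 ± 1.76 CPM (Sal-Coc) and 12.7 ± 1.04 CPM (Coc-Coc; SD, n = 3). In contrast to Fgf2, its Sal-Sal pools, at 7.76 to 14.1 CPM, overlapped those of both other groups. After the group means were taken out, r with Fgf2 was 0.88 for Mettl11b, 0.63 for Dgkh and 0.10 for Cacna1e. Cacna1e thus resembled Fgf2 in its group means but not from pool to pool. Mettl11b varied with Fgf2 from pool to pool, and its group means were in the same order. Against Sal-Sal, its log2 fold change was -0.79 in Sal-Coc and 0.16 in Coc-Coc, where Fgf2 had -0.55 and 0.43. The named genes were picked for a high r over these same pools. Their r after the group means were taken out is therefore not independent of that choice.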

How the data were processed

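Values are the read counts per gene of Ensembl 84 that the authors deposited without normalization, with 1 table for each of 4 technical replicates of 9 pools. According to the labels and methods, libraries were polyA-selected and strand-specific, base calling used bcl2fastq 2.17.1.14, and reads of 75 bases were filtered, aligned with STAR and counted with HTSeq 0.5.3. The strand setting of the counting is not given in the sources used here. Here, technical replicates were summed, and edgeR 4.0.16 (R 4.3.3) was fitted to all 9 pools after filterByExpr and TMM scaling. Its quasi-likelihood p-values were adjusted by Benjamini-Hochberg over all genes (threshold 0.05), with DESeq2 1.42.0 as an alternative. CPM are TMM-scaled, and log2 CPM used a prior count of 2. Totals of 36372166 to 42449841 counts per pool give Fgf2 a mean counting error of 3.86% to 5.57% by group.

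The tables pair no identifiers with symbols. Symbols were joined where a published ventral fold change equalled, to 6 digits, the ratio of group means of normalized counts of 1 identifier (1506 of 1539 symbols). Fgf2, its pathway lists and the marker lists were chosen with earlier results of these data known. Named were Fgf2 and its neighbours, list members with an adjusted p under 0.05 (up to 4 per list and contrast, filled by CPM), and the genes most like Fgf2. Of these last, identifiers without a symbol are printed for 2 at each end, and genes with a symbol, as well as the genes of the study's own lists, were added after the data were seen. The authors' published fold changes and p-values served only for the join. Phenotype labels disagree with descriptions for Sal-Coc and Coc-Coc, and groups were taken from titles, descriptions and treatments.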

Additional observations from a re-analysis of the deposited data

How the results depend on the processing

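Under the 8 alternatives set out for normalization, the filter on low counts, the tool, the pools fitted, the replicate block and technical replicate a alone, the Fgf2 log2 fold changes kept their direction. They ran from -0.58 to -0.46 for Sal-Coc against Sal-Sal, from 0.40 to 0.43 for Coc-Coc against Sal-Sal and from 0.88 to 0.99 for Coc-Coc against Sal-Coc. Leaving out each pool in turn gave -0.71 to -0.42, 0.32 to 0.57 and 0.84 to 1.13. With the pool number as replicate block they were -0.55, 0.42 and 0.97. The numbers name different animals in each group, and deviations of same-numbered pools correlated by -0.0275 on average (9 pairs), against 0.0151 for other pairs (18), so the block gives no pairing. With it, 7, 4 and 0 of the 7 pathway genes and 3, 0 and 0 of the 3 astrocyte markers were called.

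The 7 pathway genes called in Sal-Coc against Sal-Sal stayed 7 under the same 8 alternatives, and 4 to 7 were called when a pool was left out. In Coc-Coc against Sal-Sal, 4 to 6 were called under the 8 alternatives and 0 to 5 without a pool, which leaves a group with fewer samples. Leaving out Sal-Sal pool 1 for the counts over all genes was added after the data were seen. It lowered the genes called lower in Sal-Coc from 917 to 207 and raised those with the order of Fgf2 from 11 to 43. Astrocyte markers called in Sal-Coc against Sal-Sal numbered 0 to 3 without a pool. In Coc-Coc against Sal-Coc, DESeq2 called 1 astrocyte marker where edgeR called 0, and the cause was not tested. With 3 pools in a group, several of these counts changed when a pool was left out, and a difference that was not called may still be present.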
